A study of Mus musculus with 5 samples.

Results

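The comparison described here is of B9 cells kept with the RAF inhibitor PLX7904 against B9 cells kept with the vehicle dimethyl sulfoxide (DMSO). It rests on 3 of the 5 arrays of the series, the 2 arrays labelled PLX7904 and the 1 array labelled DMSO, and on all probe sets that the platform annotation ties to exactly 1 gene symbol, 34945 of 45101. B9 cells are mouse cells whose tissue label is cutaneous squamous cell carcinomas. Their genotype, HRAS-Q61L, an activating form of the HRAS protein, is shared by every group. The treated cells received 1 µM PLX7904 for 17 h, the control cells DMSO for 17 h, and the other 2 arrays hold cells that received 1 µM vemurafenib (PLX4032) for 17 h. The vehicle is labelled 0.2% DMSO, but 2.4 µL of a 5 mM stock in 12 mL of medium is 0.02% of the volume. If the control cells had more DMSO than the treated ones, the effect of the solvent and that of PLX7904 cannot be told apart in these arrays. The labels call the arrays of a group biological replicates without saying that they came from separate cultures, so p-values measure only the spread between these arrays. The DMSO array has no replicate, and its variance is taken from the treated groups.

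RAF kinases pass the signal of RAS proteins on to MEK and then to ERK. In cells with a mutant RAS and a normal BRAF, inhibitors of the vemurafenib type can bring RAF proteins together in pairs in which the free partner is switched on, so that the ERK pathway becomes more active, which is called paradoxical activation. Active ERK is known to raise the transcripts of its own inhibitors (dual specificity phosphatases, Sprouty proteins), of immediate early transcription factors and of ligands of the EGF receptor. PLX7904 was made as an inhibitor of mutant BRAF that avoids this activation, a so-called paradox breaker, and the comparison with DMSO asks what it does in squamous carcinoma cells driven by HRAS.

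The values are signals on a linear scale, 1 per probe set and array, and a gene is represented by its brightest probe set. Of 18193 genes with 1 symbol, 10852 had a mean signal of at least 47.4 and were tested. Their arrays looked alike: over the tested genes the log2 signals of the DMSO array correlated with r = 0.990 with either PLX7904 array, and the 2 PLX7904 arrays correlated with each other with r = 0.989. The labelled tissue was checked on its markers. All 14 of the keratinocyte and epithelial markers fixed for this purpose passed the filter, with mean signals between 1628 and 24641. Of the markers of fibroblasts 1 of 7 passed, of immune cells 1 of 6, of endothelium 1 of 5, of melanocytes 2 of 7, of muscle 3 of 5 and of adipocytes 1 of 3. The highest mean signal among these other markers was 155, for Pdgfra. The summed signal of the melanocyte markers was 157 with DMSO and 218 and 332 with PLX7904, that of the fibroblast markers 170 against 202 and 264, and that of the immune markers 161 against 222 and 241. That of the muscle markers was 316 against 218 and 225, that of the endothelial markers 191 against 106 and 212, and that of the adipocyte markers 43.8 against 60.4 and 51.5. The part of such dim signals in the results was not tested.

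No gene passed the test between PLX7904 and DMSO. At an adjusted p of 0.05 limma called 0 genes higher and 0 lower (0% of 10852 in either direction), and the smallest adjusted p was 0.0563. At an unadjusted p of 0.05 limma put 389 genes higher (3.58%) and 333 lower (3.07%), 722 in all, where 543 would fall below that value if no gene differed. The 95% interval of a gene's log2 difference extended a median of 0.31 to either side of the estimate, and 0.25 for genes whose mean signal was 500 or more. For a typical gene a difference of a smaller size could not be told from 0. These intervals are not adjusted for the number of genes, and the adjusted test asks for more. Cyp1b1, with a log2 difference of -1.04, did not pass it (limma adjusted p = 0.0563). The count depends on the vemurafenib arrays, which in the fit serve only to estimate the spread. They also enter the filter and the choice of probe set, which stayed the same in the fits below. Without the first vemurafenib array limma called 14 genes higher and 15 lower, without the second 12 and 15, and with only the 3 arrays of PLX7904 and DMSO 15 and 19. These fits have 1 residual degree of freedom in place of 2, and the prior degrees of freedom that limma estimated went from 8.27 to 52.7, 50.1 and 88.3.

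Large differences shared by both PLX7904 arrays were few. Both PLX7904 arrays were at least 1.5-fold above the DMSO array for 81 genes (0.746%) and at least 1.5-fold below it for 78 (0.719%), while 611 genes differed by that much between the PLX7904 arrays themselves. Most of these genes were dim: among the 6230 genes whose mean signal was 500 or more only 3 were above and 5 below, and 36 differed between the PLX7904 arrays. The 3 above were Spry2, Tmem98 and Zdhhc12, and the 5 below were Cyp1b1, Sec24b, Mreg, Cryab and Klf7. The like measure to the 611 is 1 PLX7904 array against the DMSO array. The first PLX7904 array was at least 1.5-fold above for 172 tested genes and below for 400, the second for 246 and 281. With the array as the unit, both PLX7904 arrays lay above DMSO for 3337 genes (30.8%), both below for 3873 (35.7%) and on either side of it for 3642 (33.6%). The median log2 difference of all tested genes was -0.01.

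**Figure D1:**
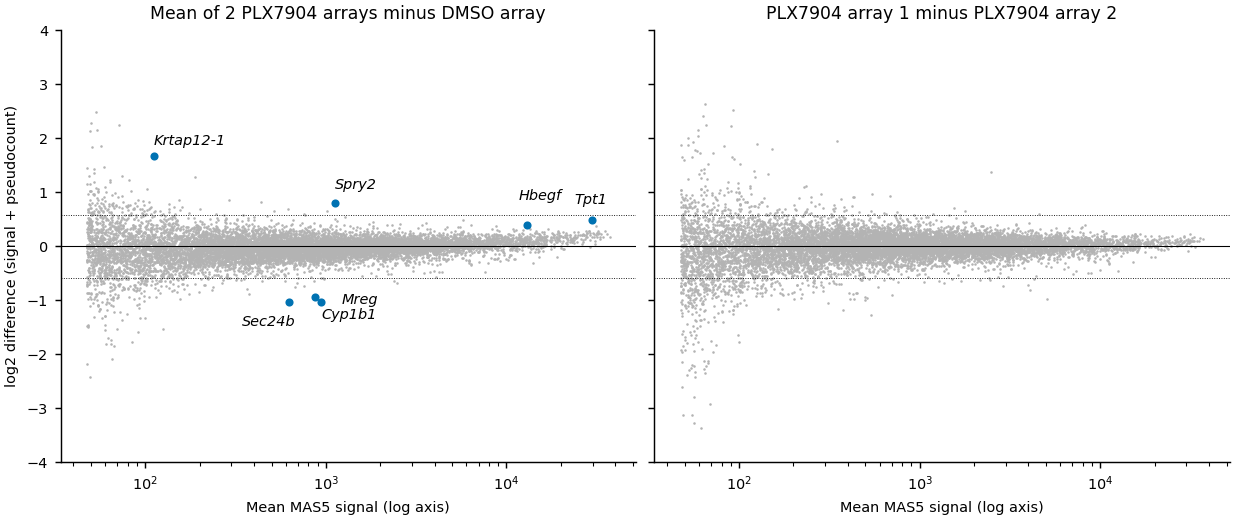
Log2 difference (signal plus pseudocount) against the mean signal on a log axis, 1 point per tested gene; the left panel shows the mean of the 2 PLX7904 arrays minus the DMSO array, the right panel one PLX7904 array minus the other, and dotted lines mark 1.5-fold. Dim genes scatter widely in both panels, and among brighter genes Spry2, Cyp1b1, Sec24b and Mreg stand outside the dotted lines only on the left, with Hbegf, Tpt1 and the dim Krtap12-1 also named.

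The gene with the largest drop among bright genes was Cyp1b1, a cytochrome P450 that oxidises polycyclic hydrocarbons and oestrogens and is a classical target of the aryl hydrocarbon receptor. Its promoter is shown because the transcript led the list of lower genes and because the receptor's core binding letters are known. The 250 bases before its start, on the minus strand of mouse chromosome 17, are chr17:79715062-79715311 in the RefSeq annotation of GRCm38.p6. Capitals mark GCGTG, the core of the receptor's response element, here as its reverse complement CACGC, beginning at -76 from the start.

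Cyp1b1: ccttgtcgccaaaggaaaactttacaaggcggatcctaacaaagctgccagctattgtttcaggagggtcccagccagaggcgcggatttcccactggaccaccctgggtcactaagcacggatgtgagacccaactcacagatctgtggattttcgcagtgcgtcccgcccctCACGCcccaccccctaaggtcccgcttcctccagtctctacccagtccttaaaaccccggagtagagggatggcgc

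The search covered both strands and this 1 motif. GCGTG or its complement is found in 28.2% of 32851 RefSeq promoters of the same length, so the match describes the sequence and marks no binding site. The Cyp1b1 signal was 1709 with DMSO, 821 and 838 with PLX7904, and 298 and 262 with vemurafenib. Both PLX7904 arrays lay well below the control and close to each other, and both vemurafenib arrays lay lower still. The log2 difference between PLX7904 and DMSO was -1.04 (SE 0.14, 95% interval -1.34 to -0.74, 2.06-fold lower, limma adjusted p = 0.0563), and that between vemurafenib and PLX7904 was -1.56 (limma adjusted p = 2.8e-05). A second probe set of Cyp1b1 also read lower on both arrays, 351 against 160 and 254. One more probe set, with signals of 4.29 against 19.4 and 30.8, did not pass the filter, and the mean over all 3 probe sets differed by 0.01. As in any bulk sample, fewer cells that carry a transcript and less of it per cell cannot be told apart here. Of the 6 tested genes of the receptor's list, Cyp1b1 included, 2 were above and 3 below DMSO on both arrays, with a median log2 difference of -0.08. Ahr, the receptor, read 967 against 971 and 1050, and Tiparp, another target, 3447 against 3363 and 3412.

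Sec24b, a cargo-selecting subunit of the COPII coat that buds vesicles from the endoplasmic reticulum, was close behind. Its signal was 869 with DMSO, 427 and 423 with PLX7904, and 555 and 609 with vemurafenib. The PLX7904 arrays were the lowest of the 5. The log2 difference from DMSO was -1.03 (SE 0.13, limma adjusted p = 0.0563), and vemurafenib read 0.45 above PLX7904 (limma adjusted p = 0.0230), a call lost when either PLX7904 array or the second vemurafenib array was left out (adjusted p = 0.0555, 0.0667 and 0.131). A second Sec24b probe set was dim and untested. The coat and traffic list as a whole lay at a median of -0.01 (-0.02 after quantile normalization and -0.04 after cyclic loess), with 5 of 28 members above and 11 below DMSO on both arrays. Sec24a (1666 against 1560 and 1606) and Sec24c (2304 against 1844 and 2122), which carry cargo in the same coat, were lower on both arrays, and Sec24d (774 against 752 and 998) was not.

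Mreg encodes melanoregulin, a protein of lysosome-related organelles. Its signal was 1156 with DMSO, 567 and 631 with PLX7904, and 763 and 961 with vemurafenib, again with the PLX7904 arrays lowest. The log2 difference from DMSO was -0.95 (SE 0.15, limma adjusted p = 0.172). The remaining genes at the lower end by p differed by less. Klf7, a Krüppel-like transcription factor, read 1345 against 882 and 872, and was lower on both PLX7904 arrays with all 4 of its tested probe sets (log2 -0.61, -0.47, -0.88 and -0.55). Id2, which blocks basic helix-loop-helix factors from binding DNA, read 4924 against 3322 and 3673, and 1999 and 2124 with vemurafenib. All 3 of its probe sets were lower (log2 -0.49, -0.17 and -0.52), and vemurafenib lay below PLX7904 (log2 -0.76, limma adjusted p = 2.57e-04).

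Cryab, Slc6a6, Slc7a11 and Krt6b also stood at the lower end. Cryab, a small heat shock protein, read 948 against 520.5 and 595. Slc6a6, the taurine transporter, read 2644 against 1736 and 1876. Another tested Slc6a6 probe set lay on either side of DMSO, with 623 against 680 and 557. Slc7a11, which exchanges cystine for glutamate and feeds glutathione synthesis, read 1147 against 544 and 867, with the 2 PLX7904 arrays far apart. Slc7a11 was lower still with vemurafenib, at 416 and 427 (log2 vemurafenib minus PLX7904 -0.70, limma adjusted p = 0.0284). That call was lost without the second PLX7904 array, where the difference was -0.37 (adjusted p = 0.107). Another tested Slc7a11 probe set lay on either side of DMSO, with 390 against 316 and 418 for PLX7904. Krt6b, a keratin of wound-activated epidermis, read 9395 against 6896 and 6543, while the related Krt6a read 23547 against 24864 and 24949. The limma adjusted p-values of Cryab, Slc6a6, Slc7a11, Krt6b, Klf7 and Id2 lay between 0.216 and 0.493.

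At the higher end, Tpt1, the translationally controlled tumour protein, had the smallest p. Its signal was 23907 with DMSO, 34970 and 32252 with PLX7904, and 31539 and 32575 with vemurafenib. The DMSO array stood below all 4 treated arrays. The log2 difference of PLX7904 from DMSO was 0.49 (SE 0.06, limma adjusted p = 0.0563), and that between the compounds was -0.07 (95% interval -0.18 to 0.05, limma adjusted p = 0.460). Tpt1 is among the brightest genes, and the whole bright end leaned the same way. The 1001 genes whose mean signal was 5000 or more had a median log2 difference of 0.08, against -0.07 for the 1311 genes below 100. After quantile normalization the median of those 1001 genes was 0.01, and after cyclic loess 0.02. The values of bright genes are read beside that median.

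The ribosomal protein genes, which are among the brightest on the array, shared that lean. Of 23 tested, 20 were above DMSO on both PLX7904 arrays (87.0%, against 30.8% of all genes) and 1 below, with a median log2 difference of 0.20. Rplp0 of the ribosomal stalk read 26238 against 35661 and 32795, and Rps2 24910 against 31060 and 29721. Rpl37 went the other way, with 5110 against 3460 and 3854. After quantile normalization the median of the list was 0.02, and after cyclic loess 0.09. Genes of oxidative phosphorylation (32 tested, 19 above and 3 below on both arrays, median 0.07) and translation factors (16 tested, 11 above and 2 below, median 0.09) lay on the same side, at 0.04 and 0.02 after quantile normalization.

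Spry2, which encodes a Sprouty protein that ERK signalling induces and that in turn restrains receptor tyrosine kinases, was the member of the ERK pathway with the smallest p. Its signal was 571 with DMSO, 960.1 and 1040.5 with PLX7904, and 1730 and 1884 with vemurafenib. The 3 groups did not overlap, and PLX7904 lay between the control and vemurafenib. The log2 difference of PLX7904 from DMSO was 0.80 (SE 0.12, 95% interval 0.55 to 1.06, 1.75-fold, limma adjusted p = 0.1004), and vemurafenib lay 0.85 above PLX7904 (limma adjusted p = 3.97e-04). That second difference was lost with the mean of all Spry2 probe sets (0.37, adjusted p = 0.233). The other Spry2 probe set was below the filter, with 36.5 against 48.1 and 58.9.

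The promoter of Spry2, chr14:105896820-105897069 on the minus strand of GRCm38.p6 (RefSeq), is shown as that of the leading ERK target, and all of it is in lower case because none of the searched motifs was found.

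Spry2: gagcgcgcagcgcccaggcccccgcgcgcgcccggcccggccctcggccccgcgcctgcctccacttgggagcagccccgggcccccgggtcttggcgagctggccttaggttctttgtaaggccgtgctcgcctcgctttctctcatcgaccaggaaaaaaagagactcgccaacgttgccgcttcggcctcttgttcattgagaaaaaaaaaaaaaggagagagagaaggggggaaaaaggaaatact

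The motifs were CCGGAA, letters bound by ETS factors such as ELK1, TGANTCA of AP-1 and TGACGTCA of CREB and ATF proteins, on both strands. They are found in 12.0%, 6.75% and 1.55% of RefSeq promoters of this length. The motifs differ in letters, so none is part of another. Their absence says only that these letters are not in this window, and shorter forms of them were not searched.

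**Figure D2:**
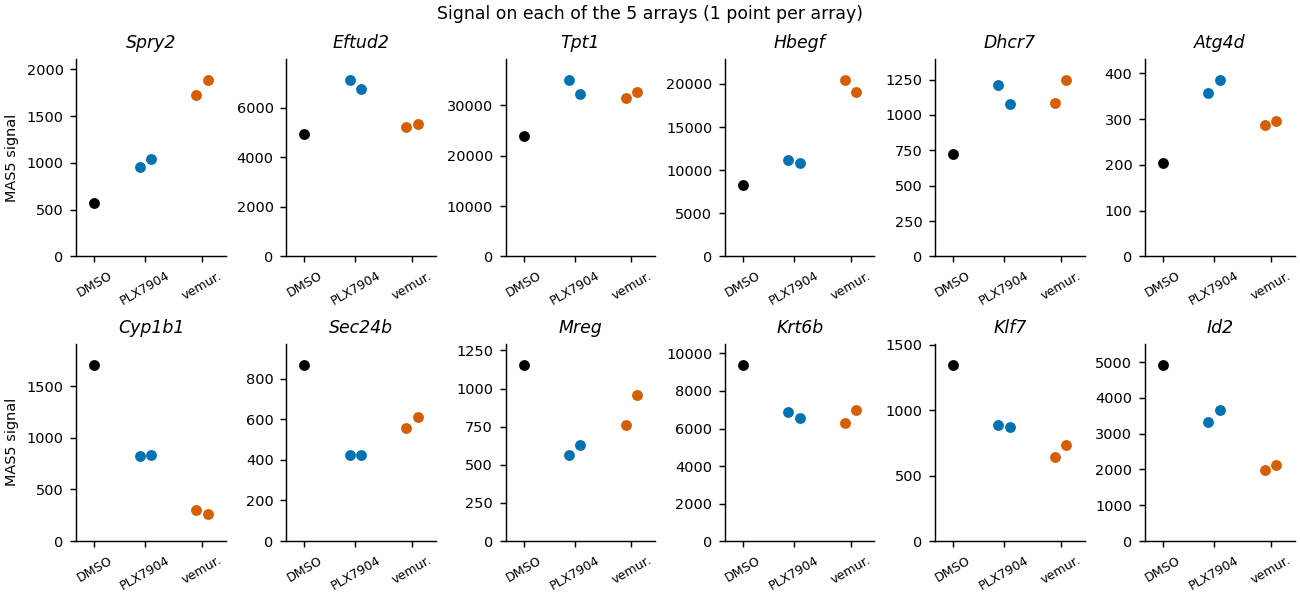
Signal on a linear axis from 0, 1 point per array (black DMSO, blue PLX7904, orange vemurafenib), for 6 genes that were higher and 6 that were lower with PLX7904. For each gene the 2 PLX7904 points lie together and away from the single DMSO point, and for Spry2, Hbegf, Cyp1b1, Klf7 and Id2 the vemurafenib points lie farther from DMSO on the same side.

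The negative regulators of the ERK pathway were split. Of 13 tested, 7 were above DMSO on both PLX7904 arrays (53.8%, against 30.8% of all genes) and 3 below (23.1%, against 35.7%). Their median log2 difference was 0.02 (0.01 after quantile normalization and 0.00 after cyclic loess), and none passed the test. At an unadjusted limma p of 0.05, 4 were higher and 1 lower, where 3.58% and 3.07% of all genes were. Errfi1 (MIG6), an inhibitor of the EGF receptor, read 3172 with DMSO, 4138 and 4001 with PLX7904, and 9689 and 9204 with vemurafenib. Dusp5, a nuclear phosphatase that inactivates ERK, read 719.5 against 957 and 897, and 2773 and 2893 with vemurafenib. For both genes PLX7904 stood a short way above the control and far below vemurafenib. Their log2 differences from DMSO were 0.36 and 0.36 (limma adjusted p = 0.331 and 0.493), whereas vemurafenib exceeded PLX7904 by 1.21 and 1.61 (limma adjusted p = 3.9e-06 for both). Dusp6, the cytoplasmic ERK phosphatase, read 6050 against 6881 and 7204 (log2 0.22). Dusp14 (959 against 997 and 898) lay on either side of DMSO, and Dusp1 (991 against 874 and 762) and Spred1 (2219 against 1995 and 1975) were lower on both arrays.

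Immediate early genes, the transcription factors and decay factors that ERK induces within minutes of a stimulus, showed no common direction. Of 22 tested, 9 were above DMSO on both arrays and 9 below (40.9% each, against 30.8% and 35.7% of all genes). Their median was -0.03. Egr1 read 348 with DMSO, 607 and 464 with PLX7904, and 1327 and 1462 with vemurafenib. All 4 treated arrays were above the control, and the PLX7904 arrays differed from each other by more than those of vemurafenib. The log2 difference from DMSO was 0.60 (SE 0.16, limma adjusted p = 0.462), and vemurafenib exceeded PLX7904 by 1.39 (limma adjusted p = 1.68e-04). Fos read 677 against 769 and 833. The AP-1 partners Jun (1564 against 1418 and 1255) and Jund (3608 against 2934 and 2587) and the stress factor Atf3 (471 against 332 and 361) read lower on both PLX7904 arrays. For Jund the 2 compounds differed by 0.00 (95% interval -0.18 to 0.19, limma adjusted p = 0.988), whereas Jun was higher with vemurafenib than with PLX7904 (log2 0.59, limma adjusted p = 0.0027).

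Ligands of the EGF receptor family leaned upward. Of 6 tested, 4 were above DMSO on both PLX7904 arrays (66.7%, against 30.8% of all genes) and 0 below (against 35.7%). Their median was 0.15. Hbegf, a membrane-anchored ligand that proteases release, read 8321 with DMSO, 11123 and 10799 with PLX7904, and 20418 and 19053 with vemurafenib. Here too PLX7904 lay between the control and vemurafenib without overlap. The log2 difference was 0.40 (SE 0.07, limma adjusted p = 0.216), above the 0.08 median of genes as bright, and vemurafenib exceeded PLX7904 by 0.85 (limma adjusted p = 2.1e-05). A second Hbegf probe set read 2969 against 3494 and 3437. Tgfa (1376 against 1589 and 1460) and Ereg (2739 against 2883 and 3002) were a little above the control, and the dim Btc read 54.5 against 88.4 and 97.4. Dimmer tested probe sets of Tgfa did not share its direction, with 137 against 106 and 114, and 106 against 93.8 and 110. The neuregulins Nrg1 (779 against 664 and 820.4) and Nrg2 (183 against 303 and 139) had PLX7904 arrays on either side.

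Other genes known to follow ERK activity lay a little above the control. Of 19 tested, 11 were above on both arrays (57.9%, against 30.8% of all genes) and 4 below (21.1%, against 35.7%). Their median was 0.09. Plaur, the urokinase receptor, read 2678 against 3282 and 3074, and Hmga2, a chromatin protein of tumours, 8361 against 9680 and 9468. Ccnd1, which encodes cyclin D1, read 13183 against 14543 and 13475, and Phlda1 7505 against 7940 and 8017. Fgf18, a growth factor, separated the compounds most within these lists. It read 217 with DMSO, 165 and 176 with PLX7904, and 776 and 682 with vemurafenib. With PLX7904 it lay below the control (log2 -0.34, SE 0.17, limma adjusted p = 0.768), and vemurafenib exceeded PLX7904 by 2.07 (limma adjusted p = 1.8e-05).

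Over the 4 lists of ERK output together, 60 genes were tested. Both PLX7904 arrays lay above DMSO for 31 of them (51.7%, against 30.8% of all genes) and below for 16 (26.7%, against 35.7%), and the median log2 difference was 0.09, or 0.05 after either quantile normalization or cyclic loess. Between vemurafenib and PLX7904, limma called 31 of the 60 higher with vemurafenib and 0 lower, where 6.43% and 6.87% of all genes were called. The PLX7904 arrays enter both comparisons, so the 2 counts are not independent. Without the intensity trend in the variance model, the only differences between the compounds to pass, among genes given values here, were those of Errfi1, Dusp5, Cyp1b1, Fgf18 and Sprr1a. The adjusted p of Spry2, Hbegf and Egr1 was then 0.0595, 0.0591 and 0.0608.

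**Figure D3:**
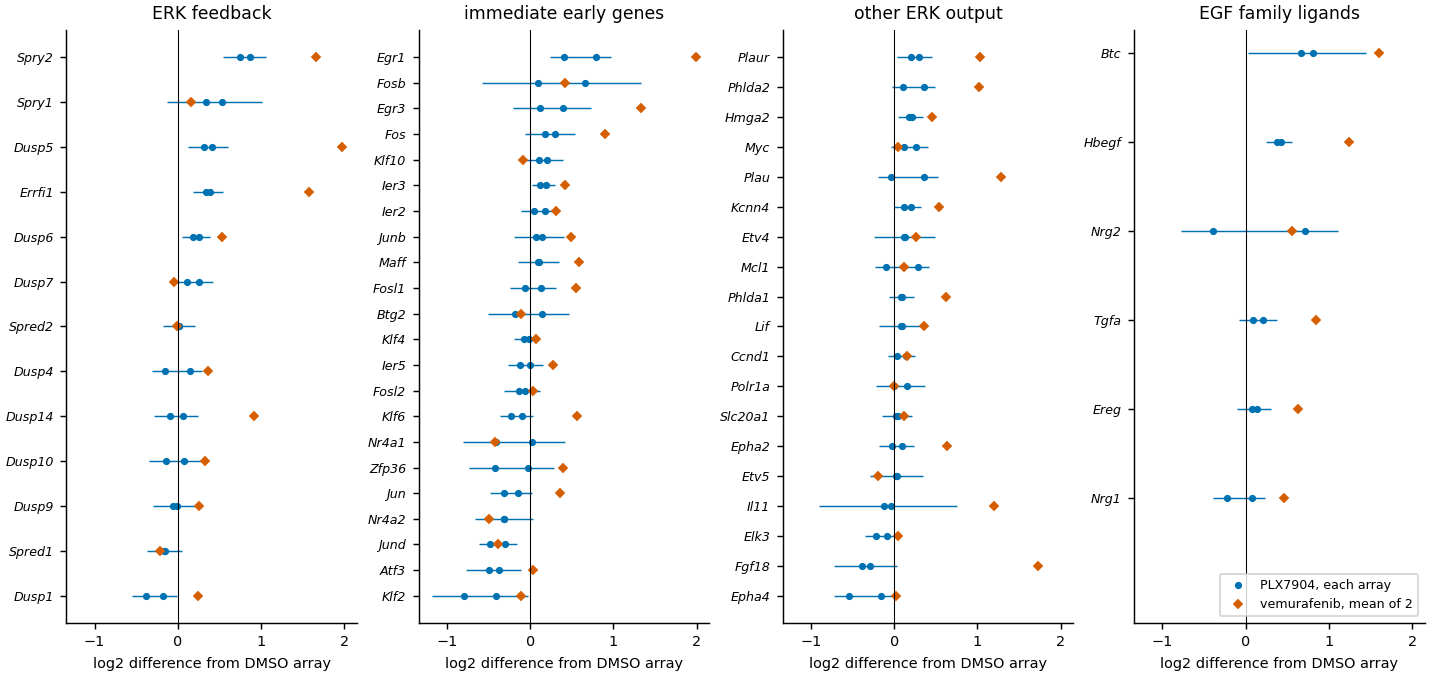
Log2 difference from the DMSO array for each tested gene of the 4 lists of ERK output; blue points are the 2 PLX7904 arrays, blue lines the 95% interval of their mean from limma and orange diamonds the mean of the 2 vemurafenib arrays. Most blue points lie close to 0, and the diamonds of Spry2, Dusp5, Errfi1, Egr1, Fgf18 and Hbegf lie far to their right.

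The components of the cascade itself also lay a little above the control by their median. Of 21 tested, 8 were above DMSO on both arrays (38.1%, against 30.8% of all genes) and 5 below (23.8%, against 35.7%). None passed. The median was 0.09, or 0.07 after quantile normalization and 0.11 after cyclic loess. Braf read 364 with DMSO, 346 and 430.1 with PLX7904, and 372 and 324 with vemurafenib, and the arrays of the groups overlapped (log2 0.08, SE 0.18). Araf read 457 against 496 and 488, but its other tested probe sets had log2 differences of -0.25, -0.14, -0.26 and -0.50. Nras read 2581 against 2542 and 3144. Map2k1, which encodes MEK1, read 3131 against 3020 and 2758, and 4010 and 3731 with vemurafenib (log2 vemurafenib minus PLX7904 0.42, limma adjusted p = 0.0063). Pebp1, which encodes the RAF kinase inhibitor protein, read 16274 against 19968 and 18268. Hras is not analysed here. The receptors upstream were mixed. Among 15 tested, 4 were above on both arrays (26.7%) and 6 below (40.0%), near the shares of all genes. Irs2, an adaptor of the insulin receptor, read 353 against 233 and 208, and the dim Pdgfra read 83.3 against 138 and 132.

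Cell cycle genes read at or slightly above the control with PLX7904. Of 28 G2 and mitosis genes, 20 were above DMSO on both arrays (71.4%, against 30.8% of all genes) and 1 below (3.57%, against 35.7%). Their median of 0.09 stayed at 0.09 after quantile normalization and was 0.10 after cyclic loess. Mki67, the proliferation marker, read 2449 against 2565 and 2761, and the mean with vemurafenib was 1688. Ccna2, which encodes cyclin A2, read 3351 against 3509 and 3846, with a vemurafenib mean of 2239. Kif11, a spindle motor, was the member that was lower on both arrays, with 1466 against 1228 and 1312. Between the compounds limma called 25 of the 28 lower with vemurafenib, where 6.87% of all genes were called lower. The median log2 difference of the 28 was -0.47. Genes of DNA replication had 11 of 27 above (40.7%) and 6 below (22.2%), with a median of 0.03. Of the 27, 17 were called lower with vemurafenib than with PLX7904. Tyms, thymidylate synthase, was low on both PLX7904 arrays, 136 against 65.4 and 70.4, and similarly low with vemurafenib, 69.0 and 78.9.

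Lists of epithelial genes lay on both sides of the control. Of 14 genes of basal keratinocytes and hemidesmosomes, which anchor them to the basement membrane, 8 were above DMSO on both arrays and 2 below. These are 57.1% and 14.3%, against 30.8% and 35.7% of all genes. The list's median of 0.07 was -0.01 after quantile normalization and 0.01 after cyclic loess. Of 20 genes of desmosomes and junctions, 10 were below DMSO on both arrays and 6 above, with a median of -0.14. Jup, which encodes plakoglobin, read 1034 against 780.4 and 807, Dsp, desmoplakin, 9923 against 8283 and 8545, and Cdh1, E-cadherin, 5023 against 3934 and 4664. Epcam, an epithelial adhesion molecule, read higher, 8909 against 10956 and 10631. Of 20 genes of keratinocyte differentiation, 10 were below and 5 above, with a median of -0.11. Tgm1, the transglutaminase of the cornified envelope, read 1249 against 1018 and 977, and the transcription factor Grhl3 216 against 129 and 131. Ivl, involucrin, read higher, 675 against 813 and 943, with a vemurafenib mean of 1874 (log2 vemurafenib minus PLX7904 1.09, limma adjusted p = 1.4e-04). Sprr1a, a small proline-rich envelope protein, was on opposite sides of the control with the 2 compounds: it read 1400 with DMSO, 1195 and 1023 with PLX7904 and a mean of 3454 with vemurafenib (limma adjusted p between the compounds = 7.6e-06).

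The lowest median of the 42 lists with at least 3 tested genes, -0.19, was that of target genes of YAP, a coactivator controlled by cell density and tension. Of 17 tested, 10 were below DMSO on both arrays (58.8%, against 35.7%) and 2 above, and the median was -0.19 after quantile normalization and -0.18 after cyclic loess. Ccn2, the connective tissue growth factor, read 2424 against 1693 and 1913, Ccn1 2028 against 1526 and 1719, and Ankrd1 4950 against 4315 and 4132. Thbs1, thrombospondin, read 2775 against 2086 and 2226, and was lower again with vemurafenib (mean 1268, limma adjusted p between the compounds = 2.9e-04). Ccn2, Ccn1, Ankrd1 and Thbs1 were the only members below an unadjusted limma p of 0.05 against DMSO (4 of 17, against 3.07% of all genes lower). On the list 5 members had PLX7904 arrays on either side of DMSO. Target genes of p53 had 12 of 20 below (60.0%) and 4 above (20.0%), with a median of -0.12 that was -0.07 after either normalization. Its target Cdkn1a, the inhibitor p21, read 1137 against 1108 and 1444, with a vemurafenib mean of 2859. Of 13 members of the BCL2 family 8 were below (61.5%) and 1 above (7.69%), against 35.7% and 30.8% of all genes. Their median was -0.10. The dim Hrk, an inducer of apoptosis, read 144 against 34.4 and 45.2, and its PLX7904 signals lay below the filter of 47.4.

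**Figure D4:**
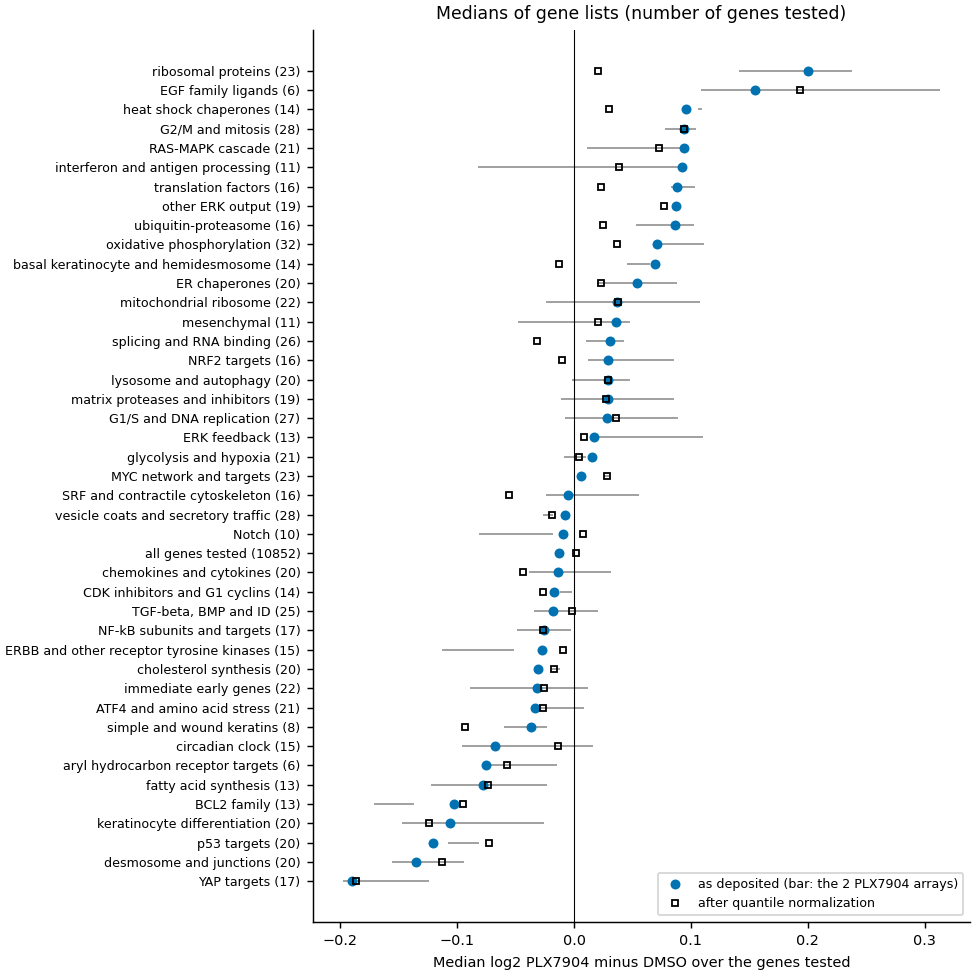
Median log2 difference between PLX7904 and DMSO over the tested genes of each list, with the number of genes in brackets; filled circles are values as deposited, grey bars join the medians of the 2 single PLX7904 arrays (a median of means can lie outside them) and open squares follow quantile normalization. All medians lie between -0.19 and 0.20, and the square of the ribosomal proteins is at 0.02.

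The medians of the 42 lists ran from -0.19 to 0.20, and 7 lay more than 0.1 from 0. Their sign changed in 4 lists after quantile normalization and in 2 after cyclic loess. Lipid synthesis stood near the control. For cholesterol synthesis 7 of 20 genes were above and 8 below on both arrays, yet Dhcr7, the enzyme of its last step, read 727 against 1208 and 1075 (log2 0.65, SE 0.13, limma adjusted p = 0.282). It read 1086 and 1245 with vemurafenib, so that the compounds differed by 0.03 (95% interval -0.21 to 0.26, limma adjusted p = 0.893). For fatty acid synthesis 1 of 13 was above (7.69%, against 30.8% of all genes) and 7 below (53.8%, against 35.7%), with a median of -0.08. Atg4d, a protease of autophagy, read 205 against 358 and 385. Its other probe set, below the filter, went the other way (18.3 against 4.57 and 9.96), and the mean of all probe sets differed by -0.12. The dim Krtap12-1, a keratin-associated protein of hair, read 42.8 against 157 and 132 (log2 1.67, SE 0.30, limma adjusted p = 0.216). Its DMSO signal lay below the filter of 47.4, which the gene passed through its treated arrays. Another Krtap12-1 probe set, below the filter, went the other way (19.9 against 2.02 and 16.4).

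Where a gene has several probe sets, they often disagreed. Among 5229 genes with at least 2 tested probe sets, every probe set was above DMSO on both arrays for 398 (7.61%) and below for 506 (9.68%), and for 0 genes was every probe set at least 1.5-fold above or 1.5-fold below. Of the 13 such genes whose brightest probe set was 1.5-fold above, 2 had all probe sets above, and of 17 below, 6 had all below. Eftud2, a GTPase of the spliceosome, is an example: the brightest probe set read 4951 against 7114 and 6768, while the others differed by 0.02 and -0.10 (log2). Nap1l1, a histone chaperone, and the RNA-binding proteins Rbm14 and Hnrnpr behaved likewise. Cyp1b1, Klf7, Id2, Errfi1 and Hbegf had tested probe sets that all lay on 1 side of 0.

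**Figure D5:**
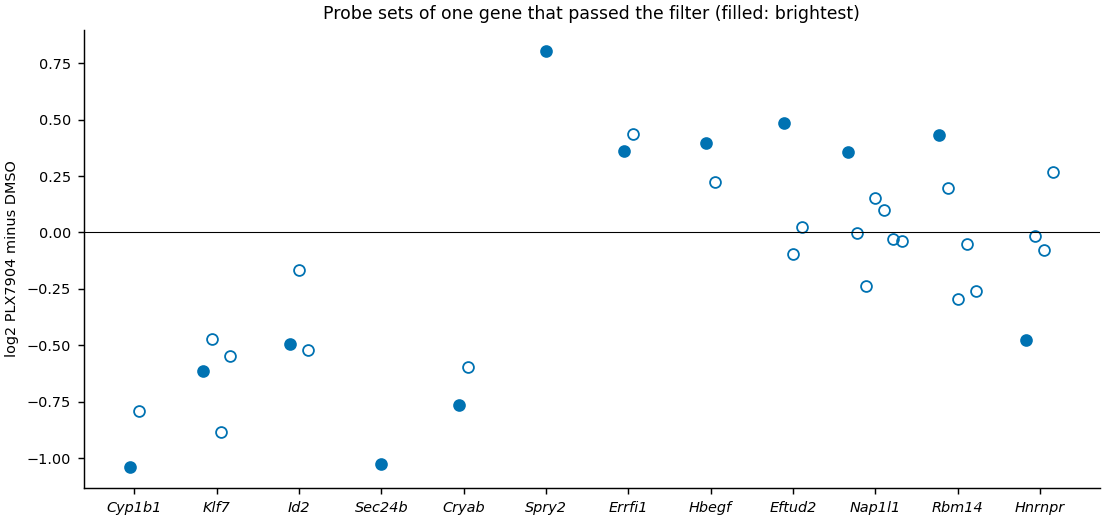
Log2 difference between PLX7904 and DMSO for every probe set of 12 genes that passed the filter; the filled point is the brightest probe set, which represents the gene, and open points are the others. The probe sets of Cyp1b1, Klf7, Id2, Cryab, Errfi1 and Hbegf lie on 1 side of 0, and those of Eftud2, Nap1l1, Rbm14 and Hnrnpr on both.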

How the data were processed

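RNA of 5 B9 samples was measured on Affymetrix 3' expression arrays. The authors deposited 1 signal, an intensity on a linear scale, per probe set and array, made with MAS5 (version not given in the sources used) per the submitters' processing notes. Each array had a trimmed mean of about 500 over the middle 96% of its values, and array medians lay between 44.1 and 51.9. Signals of dim probe sets scatter between arrays, and no detection calls were used. The number of arrays limits the precision.

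Genes were named from the platform annotation: 34945 probe sets had 1 symbol, 932 several and 9160 none, and 64 were controls. Of the first, 34741 gene identifiers matched RefSeq on GRCm38.p6. A gene took its brightest probe set. Signals were raised by 3.34, their 10th percentile, put on a log2 scale, and analysed for genes whose 3 group means averaged 47.4, the overall median, or more, and fold changes are on that scale, which understates those of dim genes. limma 3.58.1 in R 4.3.3 fitted 3 group means to all 5 arrays (lmFit, eBayes with intensity trend, 2 residual degrees of freedom), with two-sided tests and Benjamini-Hochberg adjustment over 10852 genes for each of the contrasts PLX7904 minus DMSO and vemurafenib minus PLX7904. The fit was tested on simulated data. A list is described by its median and by the arrays above or below DMSO, with no test. Plots used matplotlib 3.10.9 in Python 3.11.15.

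The members, the 43 lists and the tests were chosen with earlier results of these data known. The rule for named genes took the 12 higher and 12 lower genes with the smallest p and both PLX7904 arrays on 1 side of DMSO, all tested members of the ERK output, ligand and RAS-MAPK lists, up to 2 members at either end of other lists with both arrays at least 1.5-fold from DMSO, and the 8 highest and 8 lowest differences at a mean signal of at least 500. It selected 117 genes, of which the text gives part, and unnamed gene models were passed over. A further 22 list members are examples chosen after their values were seen. Alternatives covered the pseudocount, filter, normalization, variance model, probe sets, arrays in the fit, a replicate block, each treated array left out, and the thresholds.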

Additional observations from a re-analysis of the deposited data

How the results depend on the processing

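Of 18 alternative fits, 8 called at least 1 gene between PLX7904 and DMSO at a limma adjusted p of 0.05, and 35 genes were called in any. Sec24b was called in 8, Cyp1b1 in 7, Tpt1 in 6, Spry2 in 5, and Mreg and Rplp0 in 4. With the filter at the 75th percentile, median centring, robust eBayes or no probe sets with the suffix x, s or a, 1 gene was higher and 2 were lower. With the settings of the report, a threshold of 0.1 on the adjusted p also gave 1 and 2. With the PLX7904 and DMSO arrays alone the counts were 15 and 19. Leaving out 1 treated array gave 0 to 14 higher and 0 to 15 lower. Replicate numbers are shared by the PLX7904 and vemurafenib arrays, whose deviations correlated with r = -0.0071 over genes. With 2 pairs this cannot settle whether the numbers pair cultures, and the labels do not say. With the replicate block 2 genes were higher (Tpt1 and Rplp0) and 2 lower (Sec24b and Mreg). The counts of genes with both PLX7904 arrays at least 1.5-fold above and below DMSO were 1177 and 890 without a filter, 3 and 5 with the filter at the 75th percentile, 182 and 216 over every probe set on its own, and 17 and 14 at 2-fold. On a single PLX7904 array they ranged from 172 to 246 above and from 281 to 400 below. When all probe sets of a gene were averaged, the difference between vemurafenib and PLX7904 turned to -1.09 for Ttc32 (adjusted p = 0.0351) and to -0.18 for Egr3 (adjusted p = 0.838). The causes were not tested. Over the named and example genes, 2278 recomputed differences from DMSO kept their sign and side of the threshold, 88 passed it and 87 changed sign without a call; of those between the compounds, 2013 kept both, 46 passed it, 151 lost it and 102 changed sign without a call. Precision was lower for dim genes: below a mean signal of 100 the spread between the PLX7904 arrays was 0.68 (SD, log2), and from 5000 on 0.12.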

Other observations

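Among probe sets that the annotation ties to no gene symbol or to several, 10092 in all, 803 had a mean signal of at least 500, and for 0 of these were both PLX7904 arrays at least 1.5-fold above or below DMSO.

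Bone morphogenetic protein genes and their targets gave values in both directions. Bmp2, a secreted ligand, read 1164 with DMSO, 1460 and 1632 with PLX7904 and a mean of 2504 with vemurafenib, while Id1 (8304 against 8488 and 7994) and Id3 (3072 against 2828 and 2882), which these ligands are known to induce, stood near the control and lower with vemurafenib (limma adjusted p between the compounds 5.1e-04 and 9.4e-04). Of the 25 genes of the TGF-beta, BMP and ID list 7 were above and 7 below DMSO on both PLX7904 arrays. Id2, another ID gene given above, read lower on both PLX7904 arrays, 4924 against 3322 and 3673. Bmp2, Id1 and Id3 were chosen after their values were seen.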
